A study of Homo sapiens with 6 samples.

Results

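The genes described here encode the cytosolic ribosomal proteins: the protein-coding genes with symbols made of RPL or RPS and a number (the letters A, L or X may follow), together with RPLP0, RPLP1, RPLP2 and RPSA. Kinases of the RPS6K family, RPS4Y genes, antisense RNAs and pseudogenes were left out. The annotation held 82 such genes, and 81 of them had a row among the 27264 gene rows of the deposited count table: 49 of the large (60S) subunit and 32 of the small (40S) subunit. RPL10L, a retrocopy of RPL10, had no row and was not analysed here. Of the 81 members, 78 passed the filter on low counts and were tested, and RPL17, RPL3L and RPL39L did not pass it.

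The cells were DLD-1, an established human epithelial colorectal cancer line, in 3 clones named ZEB2 WT2, WT5 and WT37, with TR21 in their library names. ZEB2 is a zinc-finger repressor of epithelial genes and a driver of the epithelial-mesenchymal transition. Each clone gave 1 library without doxycycline (-DOX), labelled epithelial, and 1 with it (+DOX), labelled mesenchymal, so that each condition had 3 libraries and each clone had 2. A clone is 1 line, and the dose and time of doxycycline and a control line without ZEB2 were not among the labels. Every comparison between conditions is therefore over 3 clones, and every comparison between clones is between single lines with 2 libraries each, whose p-values measure the spread between those libraries.

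The libraries were made with a 3′ end kit (QuantSeq FWD), which places about 1 read on each message's 3′ end, and held 5440093 to 7164426 reads in genes. The share of all reads that mapped to several places was lowest in the WT37 libraries (11.8 and 12.01%) and 14.6 to 16.0% in the other 4. ZEB2 was at 9 reads in untreated WT2, 5 in untreated WT5 and 3 in untreated WT37, and at 20, 9 and 22 reads in the same order with DOX; no label says whether the induced transgene carries the counted 3′ end. The 8 epithelial markers together had 6654 to 8118 CPM (reads per 1e6 reads in genes) without DOX and 4449 to 5659 with it, with CDX1 at 0 in every library. CDX2 went against the sum, from 458 to 689 CPM in WT2, from 451 to 541 in WT5 and from 601 to 855 in WT37 with DOX. Markers of haematopoietic cells summed to 4.23 to 10.5 CPM, those of fibroblasts to at most 1.83 CPM and those of endothelium to at most 0.496 CPM.

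A ribosome is built from ribosomal RNA and one copy of nearly every one of these proteins, so cells make the proteins in matched amounts and degrade unassembled ones. Most of their messages begin with a 5′ terminal oligopyrimidine (TOP) tract, a C followed by further pyrimidines at the first transcribed base, through which mTORC1 and LARP1 control their translation and stability. In epithelial cells of the colon they are among the most abundant messages, and colorectal tumours are known for raised ribosome production.

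The start sites are shown for 8 members to make visible what the members share beside their names: RPLP0, RPSA, RPS7 and RPS13 were lower in clone WT37 than in WT2, and RPS25, RPL4, RPS3 and RPL39 moved in opposite directions with DOX in WT2 and WT5. Each line gives 20 bases before and 20 bases from the start that RefSeq annotates (GRCh38.p14), in the direction of transcription, and capitals mark the longest pyrimidine tract that can be read from a C within 5 bases of it. Pyrimidines before that C are not counted, so that in RPS7 and RPSA the run of pyrimidines begins further upstream.
RPLP0, chr12:120201092-120201131, minus strand: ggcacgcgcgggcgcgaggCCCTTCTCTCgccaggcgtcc
RPSA, chr3:39406700-39406739, plus strand: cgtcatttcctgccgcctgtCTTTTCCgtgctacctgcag
RPS7, chr2:3575240-3575279, plus strand: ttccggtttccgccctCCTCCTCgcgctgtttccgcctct
RPS13, chr11:17077648-17077687, minus strand: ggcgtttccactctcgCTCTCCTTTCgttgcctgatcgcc
RPS25, chr11:119018324-119018363, minus strand: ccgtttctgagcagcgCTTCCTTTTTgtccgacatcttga
RPL4, chr15:66504836-66504875, minus strand: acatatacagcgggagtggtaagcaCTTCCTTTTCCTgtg
RPS3, chr11:75399498-75399537, plus strand: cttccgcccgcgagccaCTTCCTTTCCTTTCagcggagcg
RPL39, chrX:119791611-119791650, minus strand: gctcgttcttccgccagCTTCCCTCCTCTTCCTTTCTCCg
The tract was 10, 7, 7 and 10 bases long in the first 4 and 10, 12, 14 and 22 bases long in the others. All 8 members shown thus had one. In RPL6 and RPL27, also lower in WT37, no such tract began within 5 bases of an annotated start. The RPL27 window ended in a C-led run of pyrimidines further downstream. RefSeq windows were found for 64 of the 81 members. A C followed by at least 4 pyrimidines within 5 bases of an annotated start, read on the transcribed strand alone, was present in 54 of the 64 (84.4%) and in 25.2% of 27305 genes with a window. A tract of at least 8 bases, which is part of the first count, was present in 45 of the 64 (70.3%) and in 6.73% of all genes. TATAAA between 40 and 15 bases before the start was present in 2 members (3.12%) and in 2.90% of all genes.

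The members took between 15.2 and 17.6% of all reads in genes. Clone WT2 gave 17.5% without DOX and 17.6% with it, clone WT5 gave 16.2 and 15.7%, and clone WT37 gave 15.9 and 15.2%. Both WT2 libraries were above the other 4, and WT37 with DOX was the lowest. The exact binomial 95% intervals, which cover counting error alone, were at most 0.0638 percentage points wide, as for WT2 without DOX (17.4321 to 17.4959%). The mean share was 16.5% ± 0.830 (SD, n = 3) without DOX and 16.1% ± 1.25 (SD, n = 3) with DOX, a difference smaller than the spread between clones. The large-subunit genes took 7.60 to 8.83% and the small-subunit genes 7.55 to 8.74%. Annotated pseudogenes named after the members, 702 rows in the table, added 0.216 to 0.291%. Taken over all reads, unassigned ones included, the shares were 10.9 and 11.03% in WT2, 10.2 and 9.48% in WT5 and 10.8 and 9.98% in WT37, so that WT37 without DOX then lay close to WT2.

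**Figure D1:**
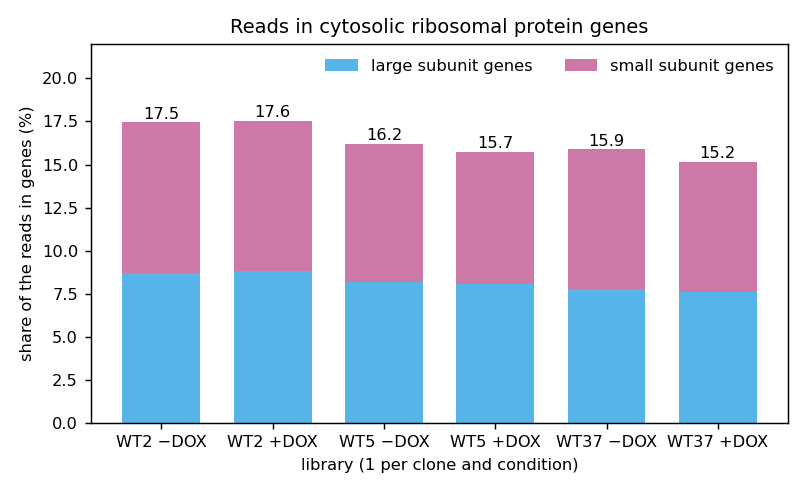
Share of the reads in genes (%) taken by the 81 members in each of the 6 libraries, split into large- and small-subunit genes, with the total above each bar. The 2 WT2 libraries stand at 17.5 and 17.6%, and the other 4 between 15.2 and 16.2%.

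Levels of single members spanned a wide range, although the proteins are needed in equal number. The kit counts about 1 read per message, so levels are given without correction for length, as CPM scaled with edgeR's TMM factors (scaled CPM). Mean levels over the 6 libraries of the 78 tested members ran from 23.9 to 16109 scaled CPM with a median of 1446, and 48 members were above 1000. The coefficient of variation over the libraries was 11.4% in the median member and ranged from 4.58 to 32.8%.

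The most abundant member was RPS27A, whose product is a fusion of ubiquitin with a 40S protein. Its scaled CPM were 18650 and 18146 in WT2, 16598 and 14322 in WT5 and 16140 and 12799 in WT37, the -DOX library first. RPL27A followed at 11201 to 15610 and RPL37A at 7574 to 9896 scaled CPM. All 3 were highest in WT2 and lowest in WT37 with DOX.

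The least abundant tested members by scaled CPM were RPL36A, RPL39 and RPS27L. RPL36A had 123 to 206 reads a library (20.3 to 29.5 scaled CPM), and a readthrough gene with HNRNPH2 covers it on the same strand. Its paralog RPL36AL, an intronless copy on chromosome 14, stood at 274 to 344 scaled CPM, above RPL36A in every library. Of the 50-base words at the 3′ end, 81.3% of those of RPL36A also occur in other genes, beside 0% for RPL36AL. The count of RPL36A may therefore fall short of its message, and whether the messages follow the order of the counts was not tested. RPL39, a protein of the peptide exit tunnel, stood at 56.3 to 142 scaled CPM and had the widest relative spread of all members (32.8%), while its paralog RPL39L had at most 2 reads in any library. RPS27L, a p53-responsive paralog of RPS27, stood at 123 to 151 scaled CPM against 597 to 797 for RPS27. In each of these pairs the order of the 2 paralogs by count was the same in all 6 libraries. The share of such words was 37.8% for RPL39 and 7.2% for RPL39L, and 75.3% for RPS27 and 0% for RPS27L. In these pairs the paralog with more shared words had the higher count.

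RPL3L, the paralog of RPL3 known from heart and skeletal muscle, had 2 and 4 reads in WT2, 0 and 3 in WT5 and 1 and 2 in WT37, against 409 to 574 scaled CPM for RPL3. RPL17 had 1 and 5, 0 and 9, and 8 and 1 reads in the same order. RPL17 lies wholly within the annotated readthrough gene RPL17-C18orf32 on the same strand, and 93.6% of the 50-base words at its 3′ end also occur in other genes, so a low count here does not measure its message. RPL10 stood at 422 to 541 scaled CPM.

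Of the 3 contrasts between clones, WT37 against WT2 held the most calls among the members. Fitted with DOX as a covariate, 76 of the 78 members were below 0 in WT37 against WT2 and 11 were called lower at an adjusted p under 0.05, with none called higher; of all 11732 tested genes 2.68% were called lower. The median difference over the members was -0.28 on the log2 scale, beside 0.01 over all tested genes. Both WT37 libraries lay below both WT2 libraries for 71 of the 78 members, against 24% of all tested genes. Other abundant messages differed too: of the 69 non-members above 1000 scaled CPM, 11 (15.9%) were called lower in WT37 than in WT2, with a median of -0.20, beside 5 of the 48 members above that level (10.4%), with a median of -0.27. Other genes of high level were thus lower in WT37 as well, and whether the members differed from them was not tested.

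The 11 members lower in WT37 than in WT2 were 6 of the large and 5 of the small subunit, on 8 chromosomes. The clone test over all 3 clones called 4 of them, with RPLP0, RPS20 and RPL6 among these. It called no other member, so that 5.13% of the 78 tested members were called, beside 6.84% of all tested genes. That share of calls was near the background. At an unadjusted p under 0.05 the edgeR clone test held 43 members (55.1%), beside 24.8% of all tested genes. The WT37-WT2 contrast of that fit held 54 members (69.2%), beside 22.7% of all tested genes. All tested genes are mostly of lower count than the members. RPLP0 anchors the P stalk, which recruits the translation factors to the ribosome. Its level was 4158 and 4083 scaled CPM in WT2, 3512 and 3639 in WT5, and 2874 and 2646 in WT37 (without and with DOX), so the 3 clones did not overlap. The difference was -0.58 ± 0.10 (log2, SE) for WT37 against WT2 (adjusted p = 0.00704) and -0.37 ± 0.10 for WT37 against WT5 (adjusted p = 0.0485). The other stalk proteins, RPLP1 and RPLP2, differed by -0.38 ± 0.11 and -0.19 ± 0.10 between WT37 and WT2 and were not called (adjusted p = 0.0567 and 0.302). RPLP1 stood at 3946 and 4218 scaled CPM in WT37 and at 4663 to 5537 in the other libraries, while for RPLP2 WT37 without DOX (6807) lay within the range of the other clones (6529 to 7361).

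RPS20, of the head of the 40S subunit, stood at 2542 and 2349 scaled CPM in WT2, 1967 and 1917 in WT5, and 1821 and 1651 in WT37. The WT37 libraries lay below all others. RPL6 (60S) stood at 724 and 735 scaled CPM in WT2, 676 and 635 in WT5 and 550 and 501 in WT37. RPS20 and RPL6 differed by -0.49 ± 0.10 and -0.47 ± 0.10 between WT37 and WT2 (log2, SE, adjusted p = 0.0157 and 0.0226). Among the other lower members were RPSA, a 40S protein also known as a laminin receptor, RPS7, RPS13, RPL7, RPL19, RPS15A and RPL27. Their differences ranged from -0.38 to -0.47, with adjusted p up to 0.0499. At the 3′ end, 90.4% of the 50-base words of RPL6, 72.9% of RPL7, 61% of RPS7 and 55.4% of RPLP0 also occur in other genes, beside 34.7% of RPS20, 30.7% of RPSA, 23.5% of RPS13, 23.1% of RPL19 and 0% of RPS15A and RPL27. The share of reads with several mapping places, given above, was lower in WT37, and its part in these differences was not tested. Adding the reads of the pseudogene rows left the WT37-WT2 median at -0.28.

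Against WT5, 67 of the 78 members were below 0 in WT37 with a median of -0.14. In this contrast 2 members, RPLP0 among them, were called lower. That was 2.56% of the members beside 2.74% of all tested genes, a share near the background. Of the 69 non-members above 1000 scaled CPM, 9 (13.0%) were called lower, with a median of -0.18. Of the 48 members above that level 1 was called lower (2.08%), with a median of -0.11. Between WT5 and WT2, 72 members were below 0 with a median of -0.16. The same 69 non-members had a median of -0.08 between WT5 and WT2, with 46 below 0. There edgeR's quasi-likelihood test called no member (lowest adjusted p = 0.19), and it called 0.341% of all tested genes lower. By that test 11 members (14.1%) had an unadjusted p under 0.05, all of them lower in WT5, beside 11.4% of all tested genes in either direction and 5.69% lower. DESeq2 and limma-voom called no member, and they called 89 and 92 of all genes in either direction. By their mean levels, 61 of the 78 members ran in the order WT2, WT5, WT37. The 2 proteins that bind 5S rRNA outside the ribosome and restrain MDM2 followed it without a call: RPL5 stood at 1694 and 1711 scaled CPM in WT2, 1629 and 1576 in WT5 and 1558 and 1464 in WT37, and RPL11 at 1928 and 1997, 1863 and 1704, and 1675 and 1549.

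The count of lower members depended on the scaling. With the reads in genes as the library size and no TMM factors, the median of all genes in WT37 against WT2 moved to 0.13 and that of the members to -0.16. The gap between the medians stayed close to -0.29, but 3 members, RPLP0 and RPS20 among them, were then called lower, beside 1.14% of all genes. Without the WT5 libraries, 40 members were called lower and 7.79% of all genes.

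**Figure D2:**
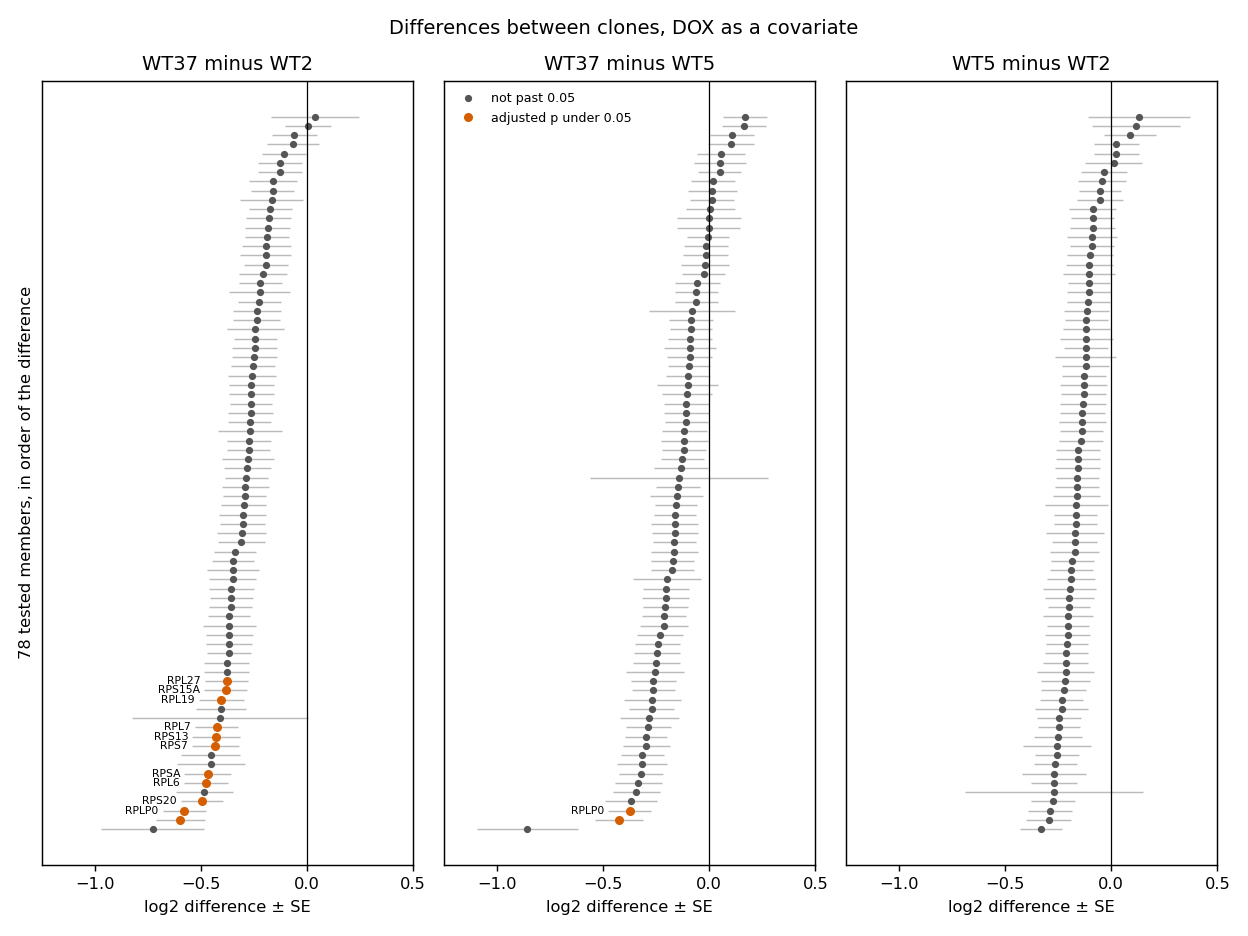
Log2 differences between clones for the 78 tested members, each panel ordered by its own differences, with bars of 1 SE; orange points have an adjusted p under 0.05, with names beside most of them. In WT37 minus WT2, 76 points lie left of 0 and 11 are orange; 2 are orange in WT37 minus WT5 and none in WT5 minus WT2.

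The levels of every tested member overlapped between the conditions. No member was called with DOX, either without a clone term (0% of all genes called) or with the clone as a replicate block (1.3% of all genes called), by edgeR's quasi-likelihood test; at an unadjusted p under 0.05 there were 0 members without the block and 2 with it, beside 6.04% and 12.9% of all tested genes, and DESeq2 and limma-voom called none in either form. Without the clone term the members' differences ran from -0.19 to 0.23 on the log2 scale, and 64 of 78 were below 0. Their median was -0.06, beside 0.01 over all genes. The 69 non-members above 1000 scaled CPM had a median of -0.07, with 41 below 0. The 48 members above that level had a median of -0.06, with 43 below 0. Other genes of high level thus had a median at least as low. In no member did the 3 +DOX libraries lie wholly below or wholly above the 3 -DOX libraries, against 6.1% and 5.28% of all tested genes. The standard error of a member's difference was 0.14 in the median without the clone term and 0.09 with it, so that these libraries could not resolve changes of the size seen.

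The 4 smallest unadjusted p-values without the clone term belonged to RPS21, RPS23, RPS27A and RPL36. RPS21, a small 40S protein, went from 3872 to 3510 scaled CPM in WT2, from 3224 to 2926 in WT5 and from 3378 to 2766 in WT37. It was lower with DOX in each clone, by -0.14 in both WT2 and WT5 and by -0.29 in WT37, and the -DOX and +DOX ranges overlapped. With the replicate block its difference was -0.19 ± 0.08 (SE, adjusted p = 0.349). RPS27A, given above, was lower with DOX by -0.04, -0.21 and -0.33 in the 3 clones, and its blocked difference was -0.20 ± 0.09 (SE, adjusted p = 0.355). RPL36 (60S) went from 1517 to 1638 scaled CPM in WT2, from 1671 to 1291 in WT5 and from 1487 to 1286 in WT37, and so was higher with DOX in WT2 alone. RPS7, which has the fourth smallest p with the block, went from 831 to 834 scaled CPM in WT2, from 756 to 633 in WT5 and from 675 to 566 in WT37 (-0.17 ± 0.09, SE).

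RPS23, a protein of the decoding centre, was the member with the largest positive difference. It went from 214 to 302 scaled CPM in WT2, from 225 to 213 in WT5 and from 169 to 197 in WT37, a difference of 0.23 ± 0.18 (log2, SE, adjusted p = 0.948). Its level was higher with DOX in 2 of 3 clones. Without the WT5 pair, edgeR's blocked fit called RPS23 (0.36 ± 0.09, adjusted p = 0.0458) and RPL30 (0.62 ± 0.09, adjusted p = 0.00232) higher with DOX. These were 2 of the 78 members, a share near the 2.94% of all genes called higher in that fit. WT5 is the clone in which both moved the other way, so the 2 calls rest on leaving it out.

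Clone by clone, the members' DOX changes had a median of -0.0029 in WT2, of -0.04 in WT5 and of -0.10 in WT37, where 67 of 78 members were below 0. With reads in genes as the library size the WT37 median was -0.02. Few members changed by more than 0.5 in either direction: 1.28% in WT2, 3.85% in WT5 and 1.28% in WT37. Of all tested genes, mostly of lower count, 18.6, 17.6 and 19.8% did so. The medians still hid changes of single members that went in opposite directions in WT2 and WT5.

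Of the 78 members, 56 (71.8%) had opposite signs of the DOX change in WT2 and WT5, against 49.8% of all tested genes. Across the members the change in WT2 and that in WT5 were inversely related, with Pearson's r of -0.77 and Spearman's rho of -0.71 (n = 78 genes, which are not independent replicates); the 2 changes share no library. Without the 2 members farthest from the median in WT2, r was -0.77. Over all 11732 tested genes r was 0.07, and over the 69 other genes above 1000 scaled CPM it was 0.17, beside -0.67 over the 48 members above that level, of which 62.5% had opposite signs. Between WT2 and WT37 the members' r was 0.37, and between WT5 and WT37 it was -0.10. With the pseudogene reads added, r between WT2 and WT5 was -0.76. Opposite changes were not confined to the members. Over 21 tested TOP messages of other genes, the median DOX change was 0.06 in WT2 (15 above 0) and -0.06 in WT5 (9 above 0). EEF1A1, EIF3E and BTF3 among them rose with DOX in WT2 and fell in WT5. How many of the 21 had opposite signs was not counted.

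**Figure D3:**
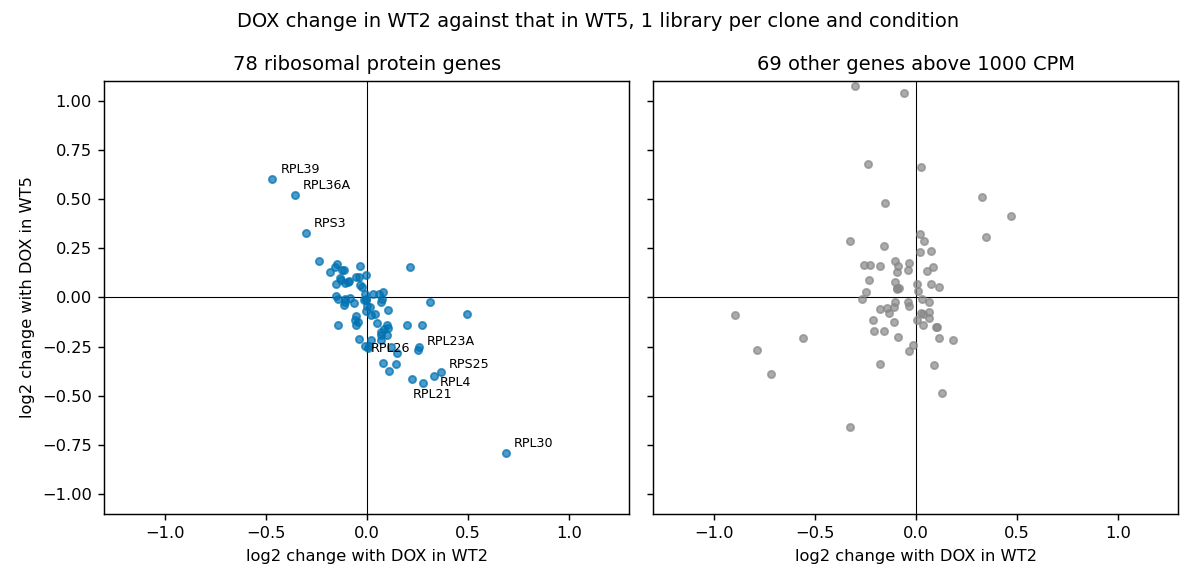
Log2 change with DOX in WT2 (horizontal) against that in WT5 (vertical), each from 1 library per condition, for the 78 members and for the 69 other genes above 1000 scaled CPM. The members run from upper left (RPL39, -0.47 and 0.60) to lower right (RPL30, 0.69 and -0.79), while the other genes show no such line (r of 0.17).

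In 9 members the change was past 0.25 in both clones with opposite signs, a share (11.5%) near that of all tested genes (10.4%), which are mostly of lower count. RPL30, a 60S protein, moved most. It went from 166 to 268 scaled CPM in WT2, from 223 to 129 in WT5 and from 132 to 194 in WT37, changes of 0.69, -0.79 and 0.55 (log2). The counting error of those changes, which leaves out the spread between libraries, was 0.06 in each clone, from 859 to 1625 reads a library. The lowest and the highest library of RPL30 were thus both +DOX libraries.

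RPS25 (40S), which many viral internal entry sites need, changed by 0.37, -0.38 and 0.18 in WT2, WT5 and WT37. RPL4, a protein that lines the exit tunnel, changed by 0.33 and -0.40 in WT2 and WT5, and RPL21 by 0.28 and -0.43. RPL26 and RPL23A, which sit near the tunnel's exit, changed by 0.25 and 0.26 in WT2 and by -0.27 and -0.25 in WT5. These 6 members, RPL30 included, were higher with DOX in WT2 and lower with DOX in WT5.

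The other 3 members went the opposite way. RPL39 went from 123 to 89.2 scaled CPM in WT2, from 93.9 to 142 in WT5 and from 56.3 to 73.8 in WT37, changes of -0.47, 0.60 and 0.39 (log2). RPS3, a 40S protein at the mRNA entry channel, went from 4751 to 3852 scaled CPM in WT2, from 3846 to 4823 in WT5 and from 3672 to 3592 in WT37. Its changes of -0.30 in WT2 and 0.33 in WT5 had a counting error of 0.01 each, again without the spread between libraries. RPL36A changed by -0.36 and 0.52, with counting errors of 0.18 and 0.16. For RPL39 and RPS3 the WT2 -DOX and WT5 +DOX libraries were the 2 highest of the 6.

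**Figure D4:**
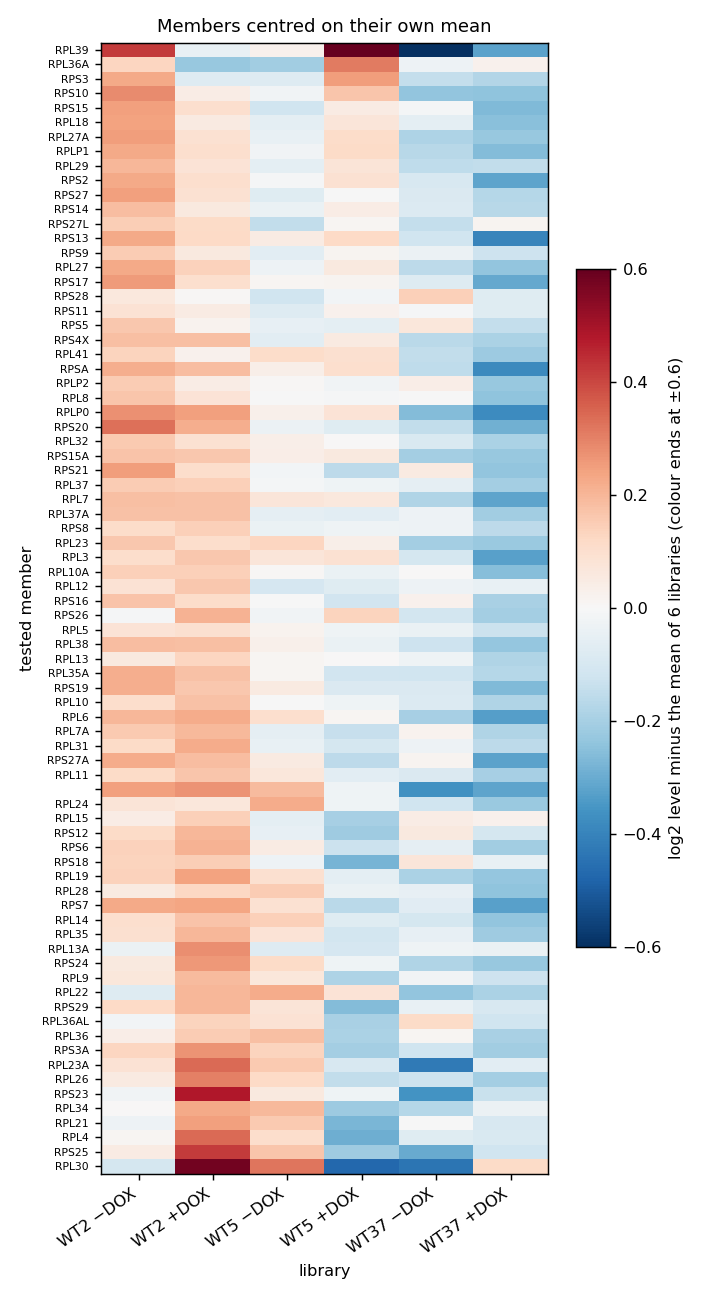
Log2 level of each tested member minus its mean over the 6 libraries, with members ordered by the DOX change in WT2 minus that in WT5. Members at the top (RPL39, RPL36A, RPS3) are high in WT2 -DOX and WT5 +DOX, members at the bottom (RPL30, RPS25, RPL4) are high in WT2 +DOX and WT5 -DOX, and most members are low in WT37 +DOX.

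Seen by library, the same pattern tied libraries across clones and conditions. The correlations below use the same libraries and members as the r between the changes in WT2 and WT5, and so restate it in part. With each member centred on its mean over the 6 libraries, WT2 without DOX correlated over the 78 members with WT5 with DOX (r = 0.54), and WT2 with DOX correlated with WT5 without DOX (r = 0.58), the 2 highest of the 15 pairs of libraries. Taken as deviations from the means of the conditions, the 2 libraries of a clone had an r over the members of -0.42 in WT2, -0.36 in WT5 and 0.56 in WT37. By the same measure over all tested genes r was 0.49, 0.29 and 0.51, so that the sign differed between members and all genes in WT2 and WT5 and was the same in WT37. The share of all reads with several mapping places was higher in WT2 -DOX (15.4%) and WT5 +DOX (16.0%) than in WT2 +DOX (14.6%) and WT5 -DOX (14.7%), as was the unmapped share (4.74 and 5.25% against 4.29 and 4.48%). The part of these shares in the pattern was not tested. With 1 library per clone and condition, a difference between libraries and a response of the clone to DOX cannot be told apart.

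**Figure D5:**
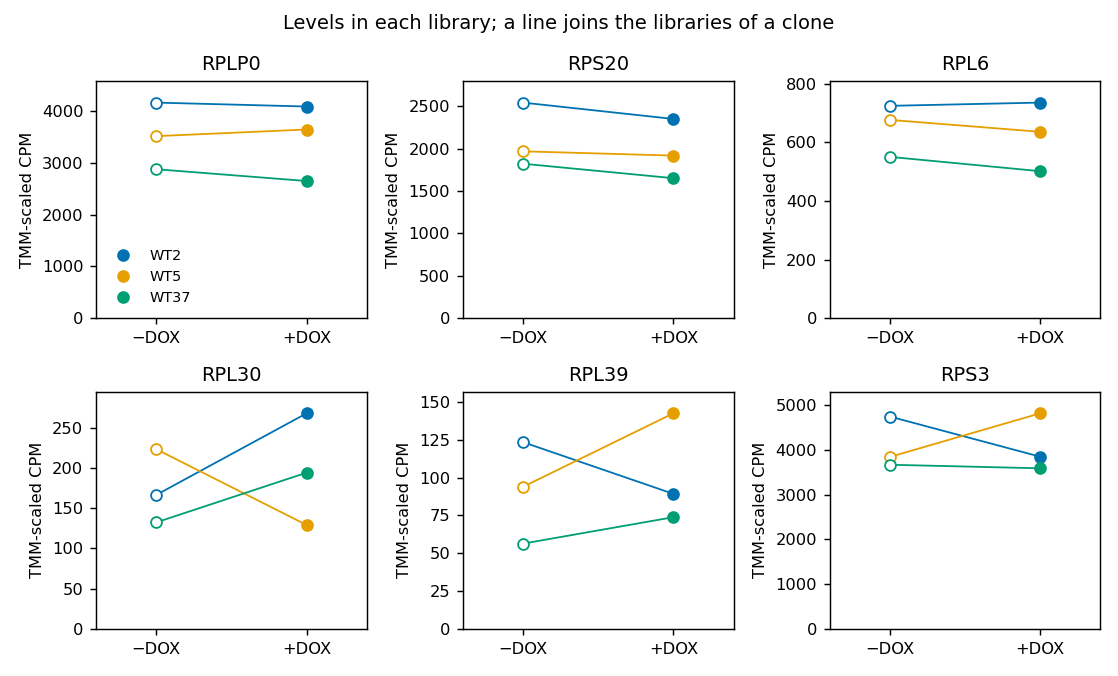
Scaled CPM of 6 members in each library, without (open) and with DOX (filled), a line joining the 2 libraries of a clone; each vertical axis starts at 0. RPLP0, RPS20 and RPL6 are lowest in both WT37 libraries, while the WT2 and WT5 lines of RPL30, of RPL39 and of RPS3 cross.

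Genes around the members were counted on fixed lists. FAU, which encodes a ribosomal protein fused to a ubiquitin-like protein, differed by -0.35 between WT37 and WT2, within the range of the members, and was not called. The paralogs RPL7L1, RPL22L1 and RPL26L1, which the rule leaves out, were tested, and RPL22L1 was called higher in WT37 than in WT5 (0.49 ± 0.12, SE, adjusted p = 0.0379). RPL22L1 stood at 517 and 502 scaled CPM in WT2, 549 and 420 in WT5, and 655 and 700 in WT37. RPL22, its paralog among the members, stood at 202 and 245, 249 and 225, and 181 and 187 scaled CPM, lowest in the WT37 libraries and not called against WT5 (-0.37 ± 0.12, adjusted p = 0.0945).

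Other TOP messages, elongation and initiation factors among them, showed no call with DOX by edgeR. That was 0 of 21 tested without or with the block, and 0 at an unadjusted p under 0.05. Their median was -0.16 in WT37 against WT2, with 2 of 21 called lower and 1 higher, beside 2.68% and 3.15% of all tested genes. The lower ones were EEF1B2, a subunit of the elongation factor 1 exchange complex (-0.57 ± 0.11), and EIF3K, a subunit of initiation factor 3 (-0.45 ± 0.11). The higher one was GAS5, a TOP transcript without a protein product that hosts snoRNAs, at 22.1 to 28.9 scaled CPM in WT2 and WT5 and 75.7 and 80.1 in WT37 (1.69 ± 0.15 against WT2).

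Ribosome assembly factors had a median of -0.13 with DOX over 45 genes, 38 below 0, and edgeR called none without or with the block (0 and 9 at an unadjusted p under 0.05, the 9 being 20% of the list beside 12.9% of all tested genes). Between clones they did not follow the order of the members: their median was 0.18 in WT5 against WT2, where 1 was called higher (GNL3, a nucleolar GTP-binding protein) and 8 of 45 were below 0, and -0.29 in WT37 against WT5. In the latter contrast 7 of 45 were called lower and none higher, beside 2.74% of all tested genes: EBNA1BP2, GAR1, MRTO4, RRP12, EIF6, GNL2 and FBL. EBNA1BP2, a factor of 60S assembly, had the smallest p and stood at 344 and 295 scaled CPM in WT5 and 220 and 172 in WT37 (-0.71 ± 0.11, SE, adjusted p = 0.00551). Fibrillarin (FBL), the rRNA methyltransferase, fell by 0.45 on the log2 scale.

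Genes of RNA polymerase I and rDNA transcription had a median of -0.12 with DOX, 12 of 14 below 0 and none called by edgeR (0 without and 2 with the block at an unadjusted p under 0.05). Against WT2 the 14 genes had a median of 0.18 in WT5 (12 above 0) and of 0.12 in WT37 (9 above 0). In each of these contrasts 1 of the 14 was called lower and none higher, beside 0.341% and 2.68% of all tested genes called lower. UBTF, the upstream binding factor of rDNA, went against its list. It was lower in WT5 (-0.57 ± 0.10) and in WT37 (-0.54 ± 0.10, SE) than in WT2. Its levels were 345 and 394 scaled CPM in WT2, 235 and 261 in WT5 and 242 and 265 in WT37. Of 14 chaperones and importers of ribosomal proteins edgeR called none in any fit (0 without and 1 with the block at an unadjusted p under 0.05 for DOX). Of 22 tested genes around mTORC1, LARP1 and the S6 kinases, MXD4, a MAX partner that opposes MYC, was called higher with DOX in the blocked fit (0.68 ± 0.14, SE, adjusted p = 0.0361), and no other was called in either DOX fit.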

How the data were processed

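Per the labels' protocols, total RNA of 6 DLD-1 libraries was made into QuantSeq 3′ mRNA FWD libraries. The authors deposited whole-number read counts per Ensembl gene; the submitters' processing notes name GRCh38 and DESeq2, and name neither aligner, counter nor strand setting. The 4 rows that hold unassigned reads (32.2 to 39.8% of all reads) were left out of library sizes. Positions and gene kinds came from the GENCODE annotation of GRCh38, and symbols matched for 26748 of 27264 gene rows.

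Counts were fitted with edgeR 4.0.16 (quasi-likelihood test with robust estimation, TMM scaling, filterByExpr) in R 4.3.3, with Benjamini-Hochberg adjustment over all 11732 tested genes and a threshold of 0.05. The DOX fit had no clone term; the clone fit had DOX as a covariate. Within-clone changes were log2 ratios of TMM-scaled CPM after adding 0.5 reads, without a test. A clone's 2 libraries come from the same line and so pair the samples (deviations correlated at 0.49, 0.29 and 0.51). Counting intervals are 95% exact binomial intervals. edgeR was tested on simulated counts. DESeq2 1.42.0, limma 3.58.1 and other settings were alternatives. The members and lists were chosen with earlier results of these data known. Values in every library were given for members past a clone or DOX threshold (else the 4 smallest p), the 3 most and least abundant tested members, those under the filter, and the P-stalk, 5S and paralog groups; the members with opposite DOX changes, RPL22 and the genes of high level beside them were chosen after their values were seen. Results of 2 genes are not reported here.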

Additional observations from a re-analysis of the deposited data

Results flagged for a closer look

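The DOX change of 9 members had opposite signs in WT2 and WT5 and was past 0.25 on the log2 scale in both, 11.5% of the members beside 10.4% of all tested genes, a share near the background; the difference between the clones was not tested, since each clone has 1 library per condition. The change in WT2 minus that in WT5 was 1.48 for RPL30, 0.74 for RPS25, 0.73 for RPL4, 0.71 for RPL21, 0.52 for RPL26 and 0.51 for RPL23A. It was -1.07 for RPL39, -0.88 for RPL36A and -0.63 for RPS3. The line of 0.25 was chosen after the values were seen.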

How the results depend on the processing

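The DOX results held in each setting run without a replicate block: 0 members were called in all. With the replicate block 0 were called, and 0 to 2 when a clone was left out, an alternative added after the data were seen (2 without WT5). The member median with DOX ranged from -0.149 to 0.0301 over the left-out libraries, so its sign rested on single libraries (positive without WT2 -DOX or WT37 +DOX). Without a filter, 18 members were called among the clones (1783 of all genes) and 29 in WT37 against WT2 (1244 of all genes). In WT37 against WT2, limma-voom called 18 members (643 of all genes). DESeq2 and the stricter filter each gave 8 members there (327 and 614 of all genes). Among clones, 0 (without WT37, 129 of all genes) to 40 (without WT5, 1788 of all genes) members were called. In WT37 against WT2, 40 were called without WT5 (1788 of all genes). WT37 against WT5 gave 0 member calls with the stricter filter or DESeq2 (664 and 320 of all genes) and 1 without WT2 (406 of all genes). In WT5 against WT2, 0 were called in every setting. The following were also added after the data were seen. Without robust estimation, 7 members were called in WT37 against WT2 (651 of all genes) and 1 in WT37 against WT5 (680 of all genes). With reads in genes and no TMM, 1 member was called among the clones, 3 in WT37 against WT2 and 0 in WT37 against WT5. The counts over all genes were 706, 669 and 598 in the same order. The member medians were -0.1634 for WT37 against WT2, -0.0599 for WT37 against WT5 and -0.1181 for WT5 against WT2. The cause of these differences was not tested. Over all reads, the members' shares were 10.875, 11.03, 10.201, 9.476, 10.769 and 9.978% in WT2, WT5 and WT37, -DOX before +DOX. With reads in genes the WT37 median with DOX was -0.0231. No value called in the main fits changed sign. Low counts limit RPL17, RPL3L and RPL39L, and counts of 123 to 206 reads limit RPL36A.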
